A study of Mus musculus with 23 samples.

Results

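Mitochondrial DNA is a small circular genome, present in many copies per cell, that encodes core subunits of the respiratory chain and of ATP synthase together with the ribosomal and transfer RNAs needed to make them. Both of its strands are transcribed as long precursors, which are cut into single mRNAs, mostly at the transfer RNAs between them. Nuclear genes provide the polymerase, the processing enzymes and the remaining subunits, so that each complex with a mitochondrially encoded subunit is built from both genomes. Skeletal muscle, with its high demand for ATP, holds large amounts of these mRNAs.

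The transcripts described here are those of *ND1*, *ND2*, *ND3*, *ND4*, *ND4L*, *ND5*, *ND6*, *CYTB*, *ATP6* and *COX1*, 10 of the 13 protein-coding genes of mouse mitochondrial DNA, and they were looked up by name in the platform annotation. Of these 10 genes, 7 had a probe among the 45281 of the array, and each of the 7 had exactly 1. No probe was annotated to *ND2*, *ND3* or *COX1* in the table used, and they are not analysed here. Agreement between probes of the same gene therefore could not be examined. *COX2*, a mitochondrial gene outside the 10 that also has 1 probe, is given beside them for comparison. Probe sequences were not used here, so it is not known which part of a transcript each probe reads.

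The mice carry an extra copy (Ts3Yah) or a single copy (Ms3Yah) of the interval between *Hspa13* and *App* on chromosome 16, made by Cre/loxP engineering in embryonic stem cells, on a C57BL6/J background. The labels write Ts2Yah Dup (trisomic) with Ts2Yah WT, and Ms3Yah Del (monosomic) with Ms3Yah WT. The former pair was taken as the Ts3Yah mice and their diploid littermates. Gastrocnemius muscle of adult mice was read on 23 Illumina MouseWG-6 v2.0 arrays, with 1 mouse per array, from 6 Ts3Yah mice, 5 diploid littermates of that line, 6 Ms3Yah mice and 6 diploid littermates of that line. Neither exact age nor sex is in the labels, and all 4 groups share tissue and background strain. The insertion at *App* leaves it without an extra functional copy in Ts3Yah, whereas it is lost from the deleted chromosome in Ms3Yah.

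Between 16945 and 18669 probes per array were detected, meaning that the authors' detection p-value lay below 0.05. The labels were checked with *App*, the amyloid precursor gene, and with *Atp5j*, a stalk subunit of ATP synthase inside the interval. In Ms3Yah muscle *App* averaged a signal of 1305.0 ± 154 against 2381 ± 157 in diploid littermates (limma adjusted p = 0.000489). In Ts3Yah it averaged 2324 ± 252 against 2370.0 ± 181. *Atp5j* averaged 25729 ± 1777 in Ts3Yah against 19932 ± 1202 (limma adjusted p = 0.136), and 12927 ± 1011 in Ms3Yah against 19888 ± 1319 (limma adjusted p = 0.0012). All 9 fast muscle markers were detected on all 23 arrays. A high signal of *Xist*, which marks female mice, was present in 4 of 6 Ts3Yah mice and 2 of 5 of their littermates, and in 3 of 6 mice of either Ms3Yah group. Signals are bulk values, in which fewer cells of a type and less RNA per cell cannot be told apart.

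All 7 probes were detected on 23 of 23 arrays, over a wide span of brightness. Brightness depends on the probe as well as on the RNA, so positions on the array do not order the transcripts by abundance. The probe of *CYTB*, the mitochondrial subunit of complex III, ranked 5 to 18 among all probes, and its raw signal was 81.7% to 95.2% of the brightest probe of the same array. *ND4* ranked 29 to 59, *ATP6* 74 to 122 and *ND1* 74 to 128. *ND4L* was dimmer, at rank 613 to 1137. *ND6*, at rank 2074 to 6161, varied most between mice, from 260.3 to 1020.4. *ND5*, at rank 6898 to 16636 and a mean signal of 127, lay near background and is the least informative of the 7. The SD of normalised log2 signals within groups, pooled over the 4 groups, was 0.05 for *CYTB* and 0.09 to 0.17 for *ND4*, *ATP6*, *ND1* and *ND4L*. It was 0.25 for *ND5* and 0.39 for *ND6*.

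**Figure D1:**
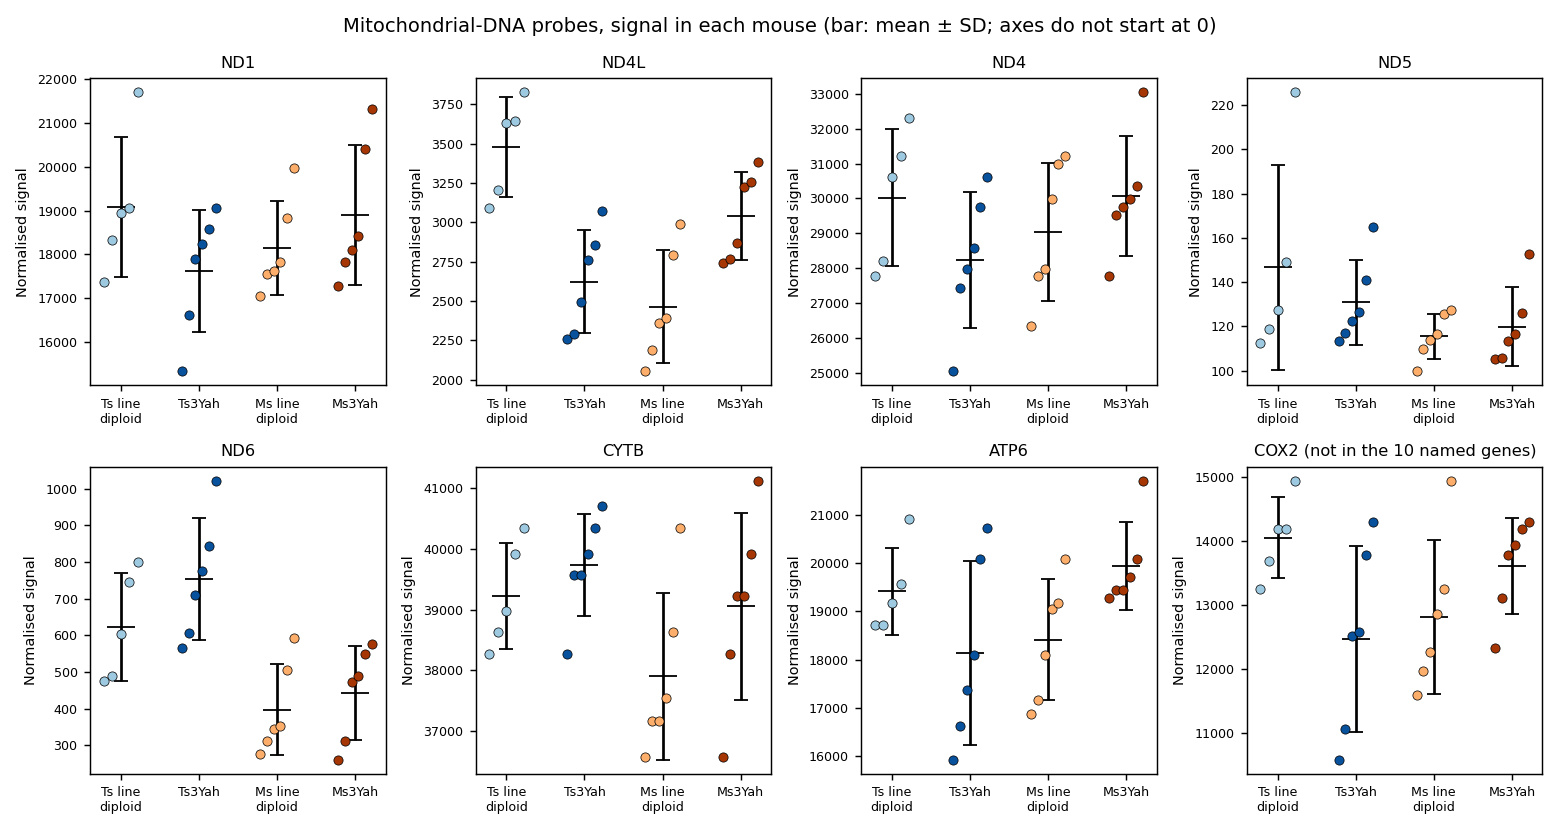
Quantile-normalised signal (vertical axis, linear, a separate range for each panel that does not start at 0) of the 7 mitochondrial-DNA probes and of *COX2* in each mouse, with the mean ± SD of each group as bars (n = 5 for the diploid littermates of Ts3Yah, n = 6 elsewhere). In the *ND4L* panel the diploid littermates of Ts3Yah lie at 3089.7 and above and the Ts3Yah mice at 3073 and below, while the groups of the other panels overlap within each line.

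The first comparison asked whether mitochondrially encoded mRNAs differ between trisomic muscle and its diploid littermates. *ND4L*, a small membrane subunit of complex I, was the member that stood furthest from its littermates, and it was lower. Its signals in the 5 diploid littermates were 3089.7, 3203, 3632, 3641 and 3826. In the 6 Ts3Yah mice they ran from 2258 to 3073, with a median of 2627. After quantile normalisation the groups did not overlap, although the highest Ts3Yah mouse lay close below the lowest littermate. Of all expressed probes, 0.276% showed Ts3Yah groups wholly below the diploid mice. In raw signals the *ND4L* groups overlapped, with Ts3Yah replicate 34558 at 3721 above diploid replicates 34561 (3481), 34723 (3278) and 34731 (3318). Means of the normalised signals were 2622 ± 327 and 3478 ± 315, a log2 difference of −0.41 (SE 0.09), or 0.75 of the diploid level. The unadjusted limma p was 0.000363, which ranked 27 of 43917 expressed probes, and the limma p adjusted over these probes was 0.591. With arrays scaled to a common median the difference was −0.46 (SE 0.17), with an unadjusted limma p of 0.0213 and an adjusted p of 0.9995.

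Because *Xist* was high in a different share of the Ts3Yah mice and their littermates, the same difference was fitted with *Xist* as a covariate. It was then −0.33 (SE 0.05) for *ND4L*, with an unadjusted limma p of 3.94e-05 and an adjusted p of 0.173.

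The other complex I probes of Ts3Yah muscle overlapped with their littermates. *ND1*, which lies in the membrane arm close to the ubiquinone site, gave 17372, 18337, 18945, 19056 and 21694.5 in the diploid littermates, and 15341 to 19056 with a median of 18061 in Ts3Yah. A value below the littermates' mean was seen in 5 of the 6 Ts3Yah mice, with a log2 difference of −0.11 (SE 0.06) and an unadjusted limma p of 0.0997. *ND4*, one of the proton-pumping subunits, gave 27766, 28215, 30627, 31218 and 32315 in the littermates and 25047 to 30627 with a median of 28272 in Ts3Yah. Its log2 difference was −0.09 (SE 0.06), with an unadjusted limma p of 0.133. *ND4* thus differed by less than its spread between mice.

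*ND5*, another pumping subunit, gave 112, 119, 127, 149 and 226 in the diploid littermates, and 113 to 165 with a median of 124 in Ts3Yah. A single littermate, replicate 34723, held the value of 226. The log2 difference of −0.13 (SE 0.16) became 0.04 without that mouse, so no direction can be given. *ND6* is the complex I subunit encoded on the opposite strand. It gave 475, 488, 605, 746 and 801 in the littermates and 564 to 1020.4 with a median of 742 in Ts3Yah. Its log2 difference was positive, at 0.28 (SE 0.17), with an unadjusted limma p of 0.127.

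Outside complex I, *CYTB* gave 38272, 38630, 38969, 39922 and 40335 in the diploid littermates and 38272 to 40699 with a median of 39748 in Ts3Yah. Its log2 difference of 0.02 (95% interval −0.04 to 0.08) was the smallest of the 7. *ATP6*, the ATP synthase subunit that forms part of the proton channel, gave 18710.2, 18710.2, 19167, 19560.1 and 20899 in the littermates and 15927 to 20724 with a median of 17735 in Ts3Yah. Its log2 difference was −0.10 (SE 0.07), with an unadjusted limma p of 0.143. Ts3Yah mice lay both above and below the littermates' mean, in 2 and 4 animals. *COX2*, a catalytic subunit of cytochrome c oxidase, averaged 12461 ± 1455 in Ts3Yah and 14045 ± 634 in the littermates, with a log2 difference of −0.18 (SE 0.07) and an unadjusted limma p of 0.0282, which stayed below 0.05 in 7 of 11 fits without 1 mouse and was 0.127 with arrays scaled to a common median.

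Of the 7 members, 5 had a negative difference in Ts3Yah, where 50.3% of all expressed probes did. Their median log2 difference was −0.10, against 0.00 over all expressed probes, and −0.05 with *Xist* as a covariate. None of the 7 passed an adjusted p of 0.05 with limma, which 0.00455% of expressed probes did. With an unadjusted p, 1 of 7 passed, *ND4L*, against 5.56% of expressed probes.

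**Figure D2:**
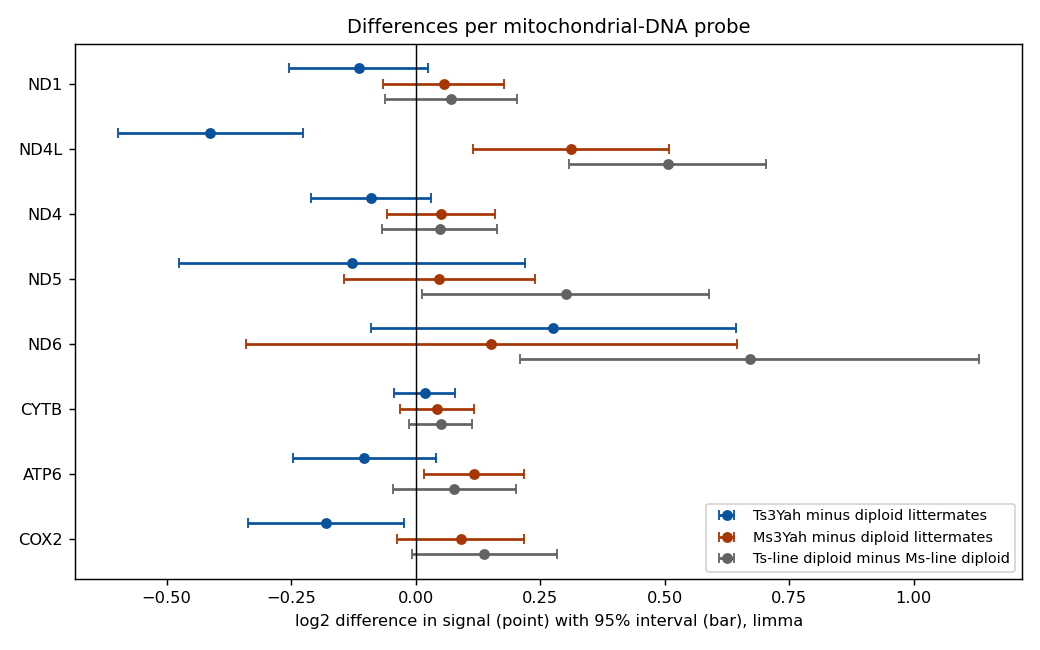
log2 difference in signal (horizontal axis; point, with the 95% interval from limma as a bar) of each mitochondrial-DNA probe for Ts3Yah against diploid littermates, Ms3Yah against diploid littermates, and the diploid mice of the Ts3Yah line against those of the Ms3Yah line. The 3 intervals of *ND4L* all exclude 0, at −0.41, 0.31 and 0.51, whereas those of *ND1* and *ND4* all include it.

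The second comparison put the same question to monosomic muscle. Here *ND4L* was again the member with the smallest p, and its values were higher than in diploid littermates. It ran from 2743 to 3384 with a median of 3047 in the 6 Ms3Yah mice, and from 2054 to 2991 with a median of 2375 in the 6 littermates. Each Ms3Yah mouse lay above the littermates' mean, and the groups overlapped through the 2 highest littermates. Means were 3041 ± 281 and 2463 ± 360, a log2 difference of 0.31 (SE 0.09). The unadjusted limma p was 0.00454, and it was 0.785 after adjustment over 44363 expressed probes. With arrays scaled to a common median the difference was 0.24, with an unadjusted p of 0.0629.

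*ATP6* ran from 19275.5 to 21694.5 with a median of 19574.5 in Ms3Yah muscle, and from 16870.4 to 20089 with a median of 18577 in the littermates. Each Ms3Yah mouse lay above the littermates' mean, and the ranges overlapped at the top of the littermates. The log2 difference was 0.12 (SE 0.05), with an unadjusted limma p of 0.0262 and an adjusted p of 0.955. Leaving out 1 mouse at a time, the unadjusted p stayed below 0.05 in 9 of 12 fits and reached 0.0631 without diploid replicate 37094.

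The remaining 5 probes differed by less than their spread. *ND1* ran from 17271 to 21324 with a median of 18265 in Ms3Yah and from 17058 to 19969 with a median of 17727 in the littermates, a log2 difference of 0.06 (SE 0.06). *ND4* ran from 27766 to 33046 with a median of 29872, against 26335 to 31218 with a median of 28977, a log2 difference of 0.05 (SE 0.05). *CYTB* ran from 36568 to 41115 with a median of 39216, against 36568 to 40335 with a median of 37353, a log2 difference of 0.04 (SE 0.03). In these 3 bright probes the Ms3Yah mice overlapped most of the range of their littermates.

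*ND6* ran from 260.3 to 576 with a median of 480 in Ms3Yah and from 276 to 593 with a median of 349 in the littermates. Its log2 difference of 0.15 had an SE of 0.23. *ND5* ran from 105 to 153 with a median of 115, against 99.8 to 127 with a median of 115, and its log2 difference of 0.05 (SE 0.09) turned to −0.02 without Ms3Yah replicate 37038. Neither gene gave a difference that stood out from the variation between mice.

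All 7 log2 differences in Ms3Yah were positive, where 50% of expressed probes were, and their median was 0.06 against 0.00 over all expressed probes. None passed an adjusted limma p of 0.05, which 0.018% of expressed probes did, and 2 of 7, *ND4L* and *ATP6*, passed an unadjusted p of 0.05, which 5.16% did. With arrays scaled to a common median 0 of 7 passed it, *ATP6* having a p of 0.268, and with the series matrix values 1 of 7, *ATP6* having a p of 0.167. *COX2* averaged 13602 ± 751 in Ms3Yah and 12802 ± 1202 in the littermates, with a log2 difference of 0.09 (SE 0.06) and an unadjusted limma p of 0.149.

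The third comparison tested whether the change in Ts3Yah differed from that in Ms3Yah, in a fit of all 4 groups. For *ND4L* the Ts3Yah change minus the Ms3Yah change was −0.72 on the log2 scale (SE 0.13). The unadjusted limma p of 1.67e-05 ranked 13 of 43141 probes expressed in both lines, and the adjusted p of 0.0554 lay just above the threshold. All 6 Ts3Yah mice were below the mean of their littermates and all 6 Ms3Yah mice above the mean of theirs. With arrays scaled to a common median the difference was −0.70, with an unadjusted p of 0.00389 and an adjusted p of 0.9996. The adjusted p was 0.0303 when probes were kept by detection p-value instead of by percentile. It ranged from 0.0127 to 0.146 over the 23 fits without 1 mouse. The threshold was passed in 5 of them, namely without Ts3Yah replicate 34558, diploid replicate 34561 of that line, Ms3Yah replicate 37148, or diploid replicate 37145 or 37146 of that line.

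*ATP6* followed with −0.22 (SE 0.08) and an unadjusted limma p of 0.0143, and *COX2* gave −0.27 (SE 0.10) with an unadjusted limma p of 0.0108. Both stayed below an unadjusted 0.05 in each of the 23 fits without 1 mouse, and neither passed after adjustment. Scaling to a common median gave unadjusted p-values of 0.146 for *ATP6* and 0.132 for *COX2*, and the series matrix, the authors' own normalised values, 0.0554 and 0.0339. *ND1*, *ND4* and *ND5* gave −0.17, −0.14 and −0.18, *CYTB* −0.02 and *ND6* 0.12, with unadjusted limma p-values between 0.0662 and 0.689. Of the 7 members, 6 had a negative difference between lines, against 49.9% of probes. None passed an adjusted p of 0.05, against 0.0278% of probes, and 2 passed an unadjusted p of 0.05, against 5.74%.

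The fourth comparison set the diploid mice of both lines side by side, which carry the same number of copies of the interval. The log2 difference of *ND4L* was larger in size here than in either aneuploid comparison, although that was not tested. All 5 diploid mice of the Ts3Yah line, at 3089.7 to 3826, lay above all 6 of the Ms3Yah line, at 2054 to 2991, a separation in this direction that 1.51% of probes showed. The log2 difference was 0.51 (SE 0.10) with a limma adjusted p of 0.00512. It ranged from 0.46 to 0.56 over the fits without 1 mouse and passed the adjusted threshold in 23 of 23. When arrays were scaled to a common median instead, the difference was 0.60 with an adjusted p of 0.0862.

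By group mean, *ND4L* was ordered as diploid littermates of Ts3Yah (3478), Ms3Yah (3041), Ts3Yah (2622) and diploid littermates of Ms3Yah (2463). The ranges of each neighbouring pair in this order overlapped. The level in Ms3Yah therefore lay between those of the 2 diploid groups, as did that in Ts3Yah.

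*ND6* was also higher on average in diploid littermates of Ts3Yah, at 475 to 801 against 276 to 593, with a log2 difference of 0.67 (SE 0.22), an unadjusted limma p of 0.0063 and an adjusted p of 0.114. The groups overlapped. *ND5* gave 0.30 (SE 0.14) with an unadjusted limma p of 0.0415, and 0.13 with a p of 0.236 without replicate 34723. The other members gave 0.05 to 0.08. Of the 7, all had a positive difference, against 53.7% of probes. Only *ND4L* passed after adjustment, 1 of 7 against 2.79% of probes, and 3 of 7 passed an unadjusted p of 0.05, against 16.3%.

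*CYTB* depended on how the arrays were scaled. Its log2 difference between the diploid groups was 0.05 (SE 0.03) after quantile normalisation and 0.32 (SE 0.04; limma adjusted p = 0.000191) after scaling to a common median. The median over the 7 members was 0.08 and 0.28, respectively. The brightest raw signal per array was 41600 to 52377 in the Ts3Yah line and 32924 to 44985 in the Ms3Yah line. Line and array batch cannot be told apart, since slide and position are not in the labels. Markers of other cell types also differed between the diploid groups. All 5 adipocyte markers measured (*Adipoq*, *Plin1*, *Fabp4*, *Cidec* and *Lep*) were lower in diploid Ts3Yah littermates than in diploid Ms3Yah littermates at an unadjusted p of 0.05, which 7.38% of probes were, and none after adjustment, and their summed signal was 677 to 2337 there against 1045 to 8230.4 in the Ms3Yah line. Macrophage markers were lower in 5 of 5, with 3 at an unadjusted p of 0.05 and none after adjustment, and their sum was 697 to 1744 against 969 to 2522. Both of 2 brown fat markers were lower, 1 at an unadjusted p of 0.05 and none after adjustment, with a sum of 173 to 201 against 179 to 937. Of 7 slow fibre markers 3 were higher and 4 lower, none at an unadjusted p of 0.05. Their sum was 37279 to 59614.5 against 25794 to 74360. The Schwann cell factor *Sox10* was higher in the littermates of Ts3Yah, at 0.31 (limma adjusted p = 0.0183), as was the endothelial *Pecam1* at 0.45 (limma adjusted p = 0.0463), each the 1 called of 3 and 5 markers. Of the 5 endothelial markers 2 were higher and 3 lower there, with a median log2 difference of −0.03. Of the 3 nerve markers 2 were higher and 1 lower. Summed nerve markers were 829 to 2463 against 759.7 to 1269.5, and summed endothelial markers 1424 to 1608 against 1262 to 1645. The part of these cell types in the *ND4L* difference was not tested. Within the Ms3Yah line the adipocyte sum was 857 to 6127 in aneuploid mice, and none of the 5 markers passed an unadjusted p of 0.05.

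*ND4L* and *ND4* adjoin and overlap in the mitochondrial annotation and are known to be carried by the same mature mRNA. Their probes were therefore set against each other within each mouse, as log2 *ND4L* minus log2 *ND4* relative to the mean of all 23 mice. This difference was 0.20, 0.21, 0.23, 0.27 and 0.37 in the diploid littermates of Ts3Yah, and ran from −0.29 to 0.18 in Ts3Yah. Here too the groups did not overlap after quantile normalisation, with the same *ND4L* values entering again. In raw signals they overlapped. Ts3Yah replicate 34558 had more *ND4L* (3721) and less *ND4* (33271) than diploid replicate 34723 (3278 and 34840). How often other pairs of probes separate in this way was not examined. In Ms3Yah the normalised difference ran from −0.16 to 0.22 and in the littermates from −0.50 to 0.13. Group means were 0.25 ± 0.07, −0.07 ± 0.17, 0.06 ± 0.16 and −0.20 ± 0.23 in this order. The signals of the *ND4L* and *ND4* probes thus did not move in a fixed ratio. The annotation used here also places *mt-Atp6* among the names of a nuclear gene model, *Gm10925*, so nuclear copies of mitochondrial sequence may share a probe, which was not tested.

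**Figure D3:**
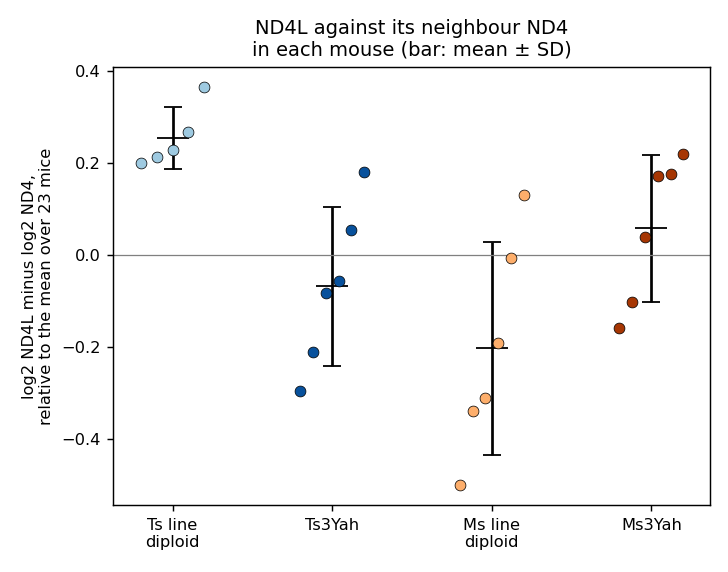
log2 signal of *ND4L* minus log2 signal of *ND4*, relative to the mean over 23 mice (vertical axis), in each mouse of the 4 groups, with mean ± SD as bars. After quantile normalisation, as drawn, the 5 diploid littermates of Ts3Yah lie at 0.20 to 0.37, above every Ts3Yah mouse, and the Ms3Yah groups overlap. In raw signals the groups of the Ts3Yah line overlap as well.

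How the probes varied together was examined with the deviations of the 23 mice from their group means, for 28 pairs of the 7 members and *COX2*. p-values are from permutation tests with 100000 resamples, two-sided and adjusted over the 28 pairs. They do not allow for the removal of group means. *ND4L* correlated most closely with *ATP6*, with a Pearson's r of 0.75 (permutation p = 3e-05, adjusted 0.00084) and a Spearman's rho of 0.76 (permutation p = 6e-05, adjusted 0.00084). The r was 0.84 within the Ts3Yah line, 0.70 within the Ms3Yah line and 0.67 without the 2 mice farthest from the median of *ND4L*. These genes do not adjoin in mitochondrial DNA.

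*ND1* and *ND4* followed, with r = 0.66 (permutation p = 0.00056, adjusted 0.00784) and rho = 0.76 (permutation p = 6e-05, adjusted 0.00084), 0.68 and 0.65 within the lines and 0.70 without 2 mice. *ND4L* with *ND6* gave r = 0.57 (permutation p = 0.00469, adjusted 0.0328) and rho = 0.60 (permutation p = 0.00283, adjusted 0.0264). That relation was uneven, with r = 0.26 in the Ts3Yah line, 0.77 in the Ms3Yah line and 0.43 without 2 mice. *ATP6* with *COX2* gave r = 0.56 (permutation p = 0.00467, adjusted 0.0328) and rho = 0.53 (permutation p = 0.00989, adjusted 0.0689), and r = 0.38 without 2 mice.

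The neighbours *ND4L* and *ND4* gave r = 0.24 (permutation p = 0.271, adjusted 0.458) and rho = 0.20 (permutation p = 0.352, adjusted 0.435), with 0.54 within the Ts3Yah line and −0.03 within the Ms3Yah line. *CYTB* ran against *ND4*, with r = −0.44 (permutation p = 0.0346, adjusted 0.088) and rho = −0.39 (permutation p = 0.0655, adjusted 0.153). In these values the mitochondrial probes did not rise and fall as a single block. Quantile normalisation fixes the set of bright values on each array, which ties the brightest probes to one another. It would largely remove a rise shared by the brightest probes, so whether they moved as a block before it cannot be told here. Correlations were not computed with other scalings.

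**Figure D4:**
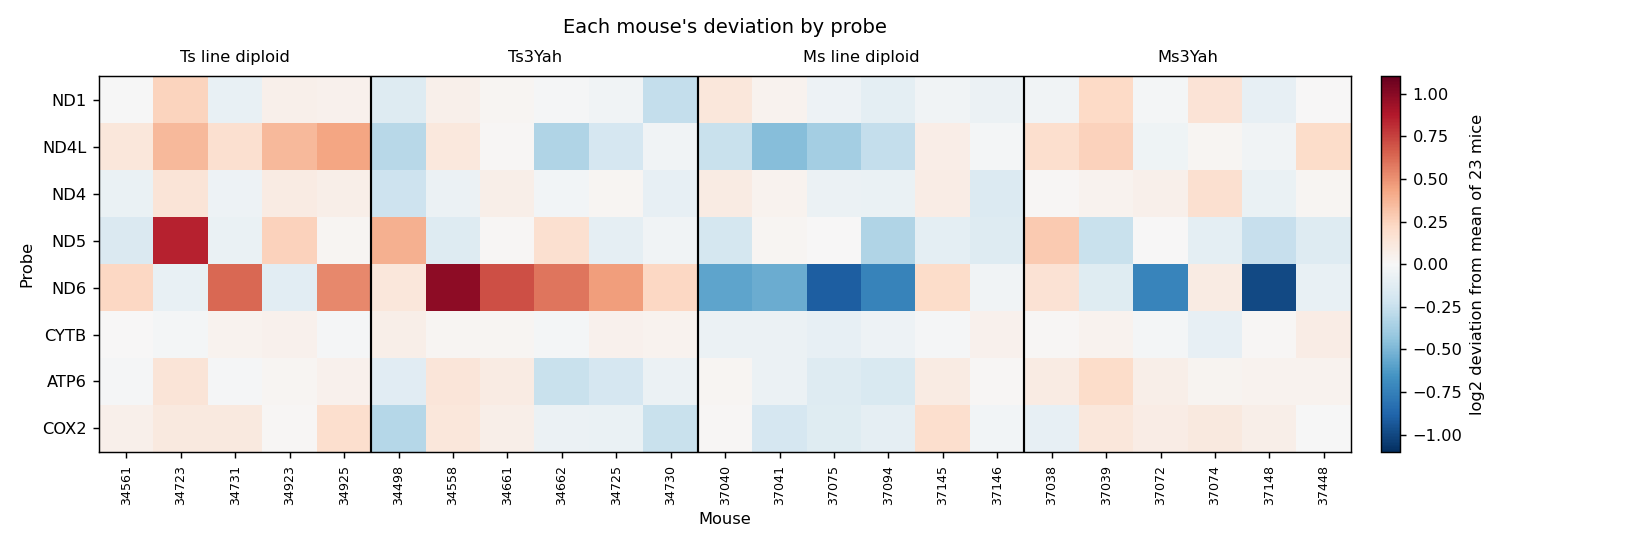
Heat map of the log2 deviation of each mouse (columns, in 4 groups) from the mean of 23 mice for each mitochondrial-DNA probe (rows), red above and blue below that mean. *ND6* and *ND5* vary most between mice, *CYTB* least, and *ND4L* is above its mean in all 5 diploid littermates of Ts3Yah.

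The 5 nuclear genes most like the mean profile of the 7 members, over 23 mice and 7815 genes detected on every array, were *Kif21a* (r = 0.82), *Tmed2* (0.80), *Tesk1* (0.79), *Siah2* (0.77) and *Dmxl1* (0.77). The mean profile itself correlated with *ND6* at 0.77, *ND4L* at 0.75, *ATP6* at 0.71, *ND1* at 0.55, *ND4* at 0.51, *ND5* at 0.28 and *CYTB* at 0.14. These are descriptions of a search and carry no test.

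Genes that transcribe, process and stabilise mitochondrial RNA were read from a list of 40, each with a probe, of which 34 were detected on every array. In Ts3Yah 2 of 40 passed an unadjusted limma p of 0.05 and both were lower, where 2.81% of expressed probes did so. *Mtpap*, the mitochondrial poly(A) polymerase, averaged 193 ± 15.7 against 217 ± 13.6, a log2 difference of −0.17 (SE 0.06; limma adjusted p = 0.853). *Lrpprc*, which stabilises mitochondrial mRNAs, averaged 295 ± 33.7 against 344 ± 30.04, a log2 difference of −0.23 (SE 0.08; limma adjusted p = 0.853). *Fastkd5* and *Grsf1*, which act in RNA processing, gave −0.12 and −0.13 and did not pass.

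In Ms3Yah 2 of 40 passed and both were higher, where 2.71% of expressed probes did so. *Fastkd1*, of the same family of mitochondrial RNA-binding proteins as *Fastkd5*, averaged 181 ± 7.22 against 157 ± 9.47, a log2 difference of 0.21 (SE 0.04; limma adjusted p = 0.398). *Grsf1*, an RNA granule protein, gave 0.17 (SE 0.08; limma adjusted p = 0.968). *Tbrg4* (0.15) and the elongation factor *Tefm* (0.13) did not pass. *Polrmt*, the mitochondrial RNA polymerase, gave 0.03 and 0.05 in Ts3Yah and Ms3Yah, and *Tfam*, which packages mitochondrial DNA, −0.06 and 0.10, none of which passed. None of the 40 passed after adjustment in either line, and the median over the list was −0.01 in Ts3Yah and 0.05 in Ms3Yah. Between the diploid groups 1 of 40 passed after adjustment, *Rexo2*, an exonuclease of short mitochondrial RNAs, at 0.28 (limma adjusted p = 0.0428). That share is near the 2.79% of all probes called there. At an unadjusted limma p of 0.05, 7 of 40 were higher in the diploid littermates of Ts3Yah and 0 lower. Of all probes 16.3% passed it in either direction. *Lrpprc* (0.27) and *Mtpap* (0.15) were among the 7, with unadjusted limma p-values of 0.00724 and 0.0147, and neither passed after adjustment. In the diploid littermates of Ms3Yah they averaged 287 and 195.

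Nuclear core subunits that assemble with the mitochondrial ones were read from a list of 21, of which 19 had a probe and 17 were detected on every array. In Ts3Yah 5 of 19 were lower at an unadjusted limma p of 0.05, against 2.81% of expressed probes, and none was higher. A negative difference was seen in 17 of 19, against 50.3% of expressed probes. *Atp5a1*, the alpha subunit of the F1 part of ATP synthase, averaged 2736 ± 214 against 3443 ± 439, a log2 difference of −0.33 (SE 0.08; limma adjusted p = 0.674). *Uqcrc1* and *Uqcrc2*, core proteins of complex III, to which *CYTB* belongs, gave −0.21 and −0.14. *Cox5a* and *Cox7a1*, subunits of cytochrome c oxidase, gave −0.16 and −0.14.

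In Ms3Yah 7 of 19 were higher at an unadjusted limma p of 0.05, against 2.71% of expressed probes, and none was lower. A positive difference was seen in 15 of 19, against 50% of expressed probes. *Cyc1*, cytochrome c1 of complex III, averaged 6214 ± 547 against 5019 ± 207, a log2 difference of 0.30 (SE 0.06; limma adjusted p = 0.274). *Ndufv1* and *Ndufs8*, which carry redox centres of complex I, gave 0.18 and 0.16, and *Cox5b* gave 0.17. None of the 19 passed after adjustment in either line. Median log2 differences over the list were −0.05 and 0.11, beside −0.10 and 0.06 over the 7 mitochondrial members. In the test of the difference between lines, 11 of 19 were lower at an unadjusted p of 0.05, against 3.06% of probes. Only *Uqcrfs1*, near background, was higher, 1 of 19 against 2.68%. Between the diploid groups 2 of 19 were higher and 5 lower at an unadjusted limma p of 0.05. Of all probes 16.3% passed it there in either direction. After adjustment 1 of 19 passed, against 2.79% of probes. It was *Atp5g3*, lower in the diploid littermates of Ts3Yah at −0.28 (SE 0.05, limma adjusted p = 0.00483). *Cyc1*, which did not pass after adjustment, was 0.18 higher there (SE 0.06, limma adjusted p = 0.0941).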

How the data were processed

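The authors read muscle RNA of 23 mice on Illumina arrays, and a further diploid mouse of the Ts3Yah line was excluded by them after principal component analysis. Their deposited raw file gives an intensity per probe and array without any background correction or normalisation. The deposited detection p-value, which moves in steps of 1 in 936, gives the rank of a probe among negative controls. A second deposited table, the series matrix, gives background-subtracted, quantile-normalised intensity values that are not logged, with column medians of 3.81 to 3.85. Within an array it kept the order of the raw signals (lowest Spearman's rho 1). Its background method is not given in the sources used here, nor are scanner software and annotation version.

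For the tests, quantile normalisation was applied to the raw signals of the 23 arrays together, followed by log2. Probes above the 35th percentile (signal 89.8, log2 6.49) on at least 1 array of a line were tested with limma 3.58.1 (lmFit, eBayes; R 4.3.3), in each line apart, two-sided, with Benjamini-Hochberg adjustment over expressed probes. Differences between lines and between diploid groups came from a fit of 4 group means. The procedure was tested on simulated data. Intervals are 95%. Values are mean ± SD. Lists were read by the brightest probe of each gene, and up to 4 genes per list and line, those with the smallest p, are named. *Rexo2*, *Cox7a1*, *Atp5g3*, *Ndufs1*, *Uqcrfs1*, *Polrmt*, *Tfam*, *Sox10*, *Pecam1*, *Ucp1*, *Cidea* and the adipocyte markers were named after their values were seen. A log2 *Xist* above 7.5 counted as high. The platform annotation, with symbols updated through RefSeq (GRCm38.p6), gives 34885 probes a single gene, 18 several and 10378 none. Members and lists were chosen with earlier results of these data known. Alternatives were normexp background correction with an offset of 16, median scaling, quantile normalisation within a line, the series matrix with a floor of 16, no filter, a detection filter, array weights, *Xist* as covariate, the methods' t-test and leaving out each mouse. The number of arrays limits the precision, and p-values measure the spread between these mice.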

Additional observations from a re-analysis of the deposited data

Results flagged for a closer look

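*ATP6* in Ms3Yah replicate 37039, at a quantile-normalised signal of 21694.5, lay far above the other 5 Ms3Yah mice, which ran from 19275.5 to 20089. Its raw signal of 18105 was not the highest, lying below replicates 37038 (22026), 37148 (20922) and 37448 (19148). Of 28 groups of mice examined (7 probes in 4 groups), this was the 1 with such a distant mouse. Chance gives such a mouse in about 1 group in 20, so 1 of 28 does not stand out.

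The log2 differences of *ND4L* had opposite signs, with each Ts3Yah mouse below and each Ms3Yah mouse above the mean of its own littermates. Neither passed after adjustment (limma adjusted p = 0.591 and 0.785). The difference between the changes was −0.72 on the log2 scale (limma adjusted p = 0.0554, and 0.9996 after median scaling). The diploid groups themselves differed by 0.51, and both enter the −0.72 as the reference of their line.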

How the results depend on the processing

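No paired analysis was possible because the numbers given to mice identify animals and no number occurs in more than 1 group. Apart from leaving out mice, 253 of 256 log2 differences of single probes, *COX2* included, kept their direction and their side of the adjusted threshold, as did 31 of 32 counts of members called. Most adjusted p-values lay far above 0.05 in every setting, so keeping their side says little about stability. After median scaling *ND4L* between diploid groups gave 0.60 (limma adjusted p = 0.0862) and *CYTB* 0.32 (limma adjusted p = 0.000191). The 1 member called there was then *CYTB* in place of *ND4L*. With the detection filter, which leaves fewer probes to adjust over, *ND4L* between lines stayed at −0.72 with an adjusted p of 0.0303, and the count of members called there went from 0 to 1. The methods' t-test gave *ND4L* an unadjusted p of 0.00218 in Ts3Yah and 0.0112 in Ms3Yah. It called 1 and 2 of the 7 members at the unadjusted threshold, and 0 in either line after Benjamini-Hochberg.

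Without 1 mouse at a time, *ND4L* ranged from −0.46 to −0.37 in Ts3Yah, 0.26 to 0.37 in Ms3Yah, −0.78 to −0.67 between lines and 0.46 to 0.56 between diploid groups. Counts of members called stayed at 0 in each line, ran from 0 to 1 between lines and stayed at 1 between diploid groups. *ND5* ranged from −0.21 to 0.0405 in Ts3Yah and −0.0245 to 0.0822 in Ms3Yah, and *ND6* between lines from −0.0170 to 0.223, so these have no stable direction. *ND6* between lines was −0.0170 without Ms3Yah replicate 37148 and −0.00206 without diploid replicate 37145 of that line.

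Signals near background limit *ND5*. *CYTB* ranked 5 to 18 among all probes, where quantile normalisation left only values from 36568 to 41115, which limits the differences it can show.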
